A study of Homo sapiens with 14 samples.

Results

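Epithelial cells hold together through cadherins, transmembrane proteins that bind the same cadherin on the neighbouring cell and are tied to the actin skeleton by catenins. During an epithelial-to-mesenchymal transition, as in gastrulation, E-cadherin gives way to N-cadherin, the intermediate filament protein vimentin and the matrix protein fibronectin appear, and the zinc-finger repressors ZEB1 and ZEB2 bind E-box elements of epithelial genes. The 8 genes of this cadherin switch were examined here out of 20033 protein-coding genes of GENCODE release 44, by counting and placing the called binding sites of the BAF chromatin remodelling complex and of SOX2 within 60 kb of each gene body on hg38. They were CDH1 (E-cadherin), CDH3 (P-cadherin) and EPCAM (an adhesion molecule of epithelial cells), the mesenchymal genes CDH2 (N-cadherin), VIM (vimentin) and FN1 (fibronectin), and the repressors ZEB1 and ZEB2. The rule names the genes and uses no measured value, but they were chosen with earlier results of these data known. The shares of all genes set beside them are therefore descriptions only.

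The cells were of the established line WIBR3 of human embryonic stem cells (hESCs), with no genetic change stated, kept either in conventional primed medium or in naïve 5i/L/A medium. Both cultures grew on inactivated mouse fibroblast feeders, and the naïve cells were reset from primed cells and expanded polyclonally. ChIP-seq targeted the exchangeable ATPases of BAF, BRM (SMARCA2) and BRG1 (SMARCA4), its core subunit BAF155 (SMARCC1) and the pluripotency factor SOX2, with 1 peak list used for each antibody and state. The files held peak positions and peak statistics and no transcript levels, so the identity of the cells could not be checked against marker expression.

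The naïve lists held 57884 BRG1, 62338 BAF155, 17413 BRM and 1940 SOX2 peaks, and the primed lists 15611 BRG1, 58352 BAF155, 167 BRM and 9290 SOX2 peaks. Read totals were not used here. Both SOX2 lists of a state shared all coordinates and were counted as 1 sample, so no comparison of the states had a replicate check, no test was possible, and the spread between cultures is unknown. The primed BRM list had no peak near any of the 8 genes and is not described further. A gene without a peak is one where no site passed the threshold of the authors, not one shown to be free of the protein. BRG1 and BAF155 peaks of a state were merged into BAF regions, which were called naïve-only, primed-only or common (covering at least 25% of either region).

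To show the DNA beneath SOX2 at these genes, the strongest SOX2 peaks of CDH1, CDH2, VIM and ZEB2 are printed, as 200 bases of hg38 around the summit on the plus strand. Capitals mark the SOX core (CATTGT or CTTTGT, either strand), and in the ZEB2 intron they mark the OCT4-SOX2 composite element, which joins the SOX site CATTGT and the OCT site ATGCAAA across any base and was accepted with up to 2 mismatches.
CDH1 intron 2, primed, chr16:68791702-68791901: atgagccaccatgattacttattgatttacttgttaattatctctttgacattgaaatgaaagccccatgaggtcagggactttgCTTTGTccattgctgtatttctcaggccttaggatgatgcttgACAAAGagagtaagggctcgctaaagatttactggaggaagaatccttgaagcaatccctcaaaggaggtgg
CDH2 intron 2, primed, chr18:28086700-28086899: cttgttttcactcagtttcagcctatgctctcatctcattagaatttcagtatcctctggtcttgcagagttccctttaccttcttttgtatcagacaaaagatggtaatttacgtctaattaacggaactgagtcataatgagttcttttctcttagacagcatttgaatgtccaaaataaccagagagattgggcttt
VIM upstream, primed, chr10:17201683-17201882: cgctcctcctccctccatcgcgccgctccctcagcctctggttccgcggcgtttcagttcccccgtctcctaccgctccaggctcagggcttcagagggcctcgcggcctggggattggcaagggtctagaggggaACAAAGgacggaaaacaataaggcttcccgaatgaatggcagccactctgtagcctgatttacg
ZEB2 intron 2, primed, chr2:144471362-144471561: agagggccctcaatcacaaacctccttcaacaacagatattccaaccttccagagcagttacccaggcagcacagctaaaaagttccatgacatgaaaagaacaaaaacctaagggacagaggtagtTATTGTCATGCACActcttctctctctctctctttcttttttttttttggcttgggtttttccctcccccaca
ZEB2 upstream, naïve, chr2:144567954-144568153: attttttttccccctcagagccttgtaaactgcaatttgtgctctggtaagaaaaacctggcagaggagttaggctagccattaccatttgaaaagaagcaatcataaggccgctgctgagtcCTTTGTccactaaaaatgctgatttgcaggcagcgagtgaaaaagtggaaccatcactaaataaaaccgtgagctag

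The SOX core lay in 9 of the 13 primed SOX2 windows of these genes and in the single naïve window. Over the whole lists it lay in 60.6% of primed and 59.1% of naïve summit windows, and in 24.6% and 24.4% of windows 2 kb away. The SOX core was absent from the strongest primed windows of EPCAM, CDH2 and ZEB2 and from a ZEB2 window of fold 8.88. The CDH2 window printed above therefore has no capitals. The composite element was found in 1 of the 13 primed windows, the strongest of ZEB2, where the match had 2 mismatches. It was found in 10.3% of all primed and 18.9% of all naïve windows, and in 0.667% and 0.670% of windows 2 kb away. The E-box CACCTG, the element that ZEB proteins bind, was present in 2 of the 13 primed windows (1 at EPCAM and 1 at ZEB2) and in 12.0% of all primed ones. No member window held the KLF, TFAP2 or ZIC letters searched. These letters were uncommon over the whole lists too, at 2.45%, 5.80% and 13.9% of primed and 3.76%, 5.21% and 4.79% of naïve summit windows.

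Over the 8 genes together, the state-specific BAF regions were split almost evenly, but they were not spread evenly over the genes. The windows covered 1780 kb and held 44 naïve-only, 40 primed-only and 32 common regions. Per Mb this was 24.7 naïve-only, 22.5 primed-only and 18.0 common regions, beside 21.7, 12.2 and 13.1 per Mb of the windows of all protein-coding genes. The epithelial genes held 33 naïve-only, 8 primed-only and 18 common regions, the mesenchymal genes 4, 20 and 6, and the repressors 7, 12 and 8. Single genes made up most of the primed-only sums, with 15 of the 20 at CDH2 and all 12 at ZEB2. The windows of CDH1 and CDH3 overlap, so the epithelial genes are not separate loci. Naïve-only regions outnumbered primed-only ones at 4 of the 8 genes, against 66.1% of all protein-coding genes, and primed-only regions outnumbered naïve-only ones at 3 of the 8, against 21.2%. The 4 were CDH1, CDH3, EPCAM and ZEB1, the 3 were CDH2, VIM and ZEB2, and FN1 had equal numbers. The shares of all genes are not matched for window length, and CDH2 and ZEB2 have long windows. Of genes with windows of at least 277 kb, 44.2% had more primed-only regions. These directions depended on the peak threshold. With peaks of fold at least 4 over input, no gene of the 8 had more naïve-only regions and 6 had more primed-only ones. The share of all protein-coding genes with more primed-only regions then rose from 21.2% to 39.9%. At that threshold a region called in both states counted as primed-only where only its primed peaks reached 4.

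**Figure D1:**
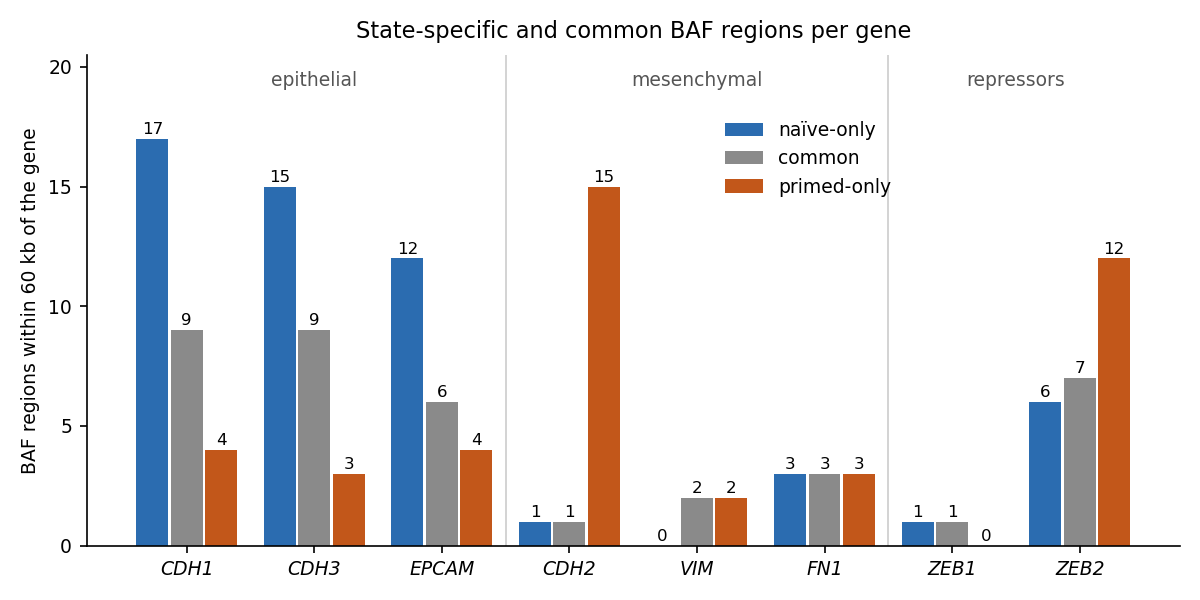
Number of naïve-only (blue), common (grey) and primed-only (orange) BAF regions within 60 kb of each gene, 1 library per antibody and state. CDH1, CDH3 and EPCAM carried 17, 15 and 12 naïve-only regions, and CDH2 and ZEB2 carried 15 and 12 primed-only ones; regions shared by CDH1 and CDH3 are counted at both.

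CDH1 (ENSG00000039068.20, chr16:68737292-68835537, plus strand) encodes E-cadherin, the main cadherin of epithelial adherens junctions. Its window held 17 naïve BRG1, 22 naïve BAF155 and 7 naïve BRM peaks, against 2 primed BRG1, 13 primed BAF155 and 1 primed SOX2 peak. Classed by state, these made 17 naïve-only, 4 primed-only and 9 common regions, an excess of 13 naïve-only regions that 6.17% of all protein-coding genes reached or passed. Of the 17 naïve-only regions, 9 lay in introns, 4 upstream and 4 downstream, and 11 had a CDH1 start as their nearest coding start. The long second intron carried 8 of them. The naïve-only region with the highest BAF155 fold at CDH1 was chr16:68767896-68768316 in intron 2, with folds of 3.47 for BRG1, 3.69 for BAF155 and 3.39 for BRM. With peaks of fold at least 4 the difference was -2, from 0 naïve-only and 2 primed-only regions. The 4 primed-only regions above had BAF155 folds of only 2.55 to 2.90. Those 2 therefore lay in regions classed common before, where only the primed peaks reached 4.

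The CDH1 start itself was bound in both states, weakly in naïve cells. The common region chr16:68736724-68738418 had naïve folds of 2.38 for BRG1 and 2.53 for BAF155 and a primed BAF155 fold of 3.50, and neither naïve BRM nor primed BRG1 was called within 1 kb. At -4.48 kb lay the common region chr16:68731878-68733751, where all BAF antibodies with usable lists were called, with naïve folds of 2.95 (BRG1), 3.00 (BAF155) and 3.25 (BRM) and primed folds of 4.18 (BRG1) and 4.96 (BAF155). That region held the highest primed BRG1 and BAF155 folds of the CDH1 window. The 1 primed SOX2 peak, chr16:68791634-68791955, had a fold of 6.83, close to the list median of 6.73, and lay in intron 2 within a common region called by BRG1 and BAF155 in naïve cells and by BAF155 in primed cells. The highest naïve folds of the window, 5.80 for BRG1, 4.77 for BAF155 and 5.26 for BRM, were at chr16:68894329-68894701, downstream of the gene, where the nearest coding start was that of TANGO6.

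CDH3 (ENSG00000062038.15, chr16:68636189-68727468, plus strand), which encodes P-cadherin, ends 9.82 kb before CDH1 begins, and their windows share 110 kb. The shared stretch held 11 of the 15 naïve-only regions counted at CDH3, all 3 of its primed-only regions and 6 of its 9 common ones, so its counts are largely those of CDH1. Of the 15 naïve-only regions, 6 had a CDH3 start as nearest coding start. The CDH3 window had 13 naïve BRG1, 22 naïve BAF155 and 4 naïve BRM peaks, 2 primed BRG1 and 12 primed BAF155 peaks, and no SOX2 peak in either state. The naïve-only excess of 12 became -2 with peaks of fold at least 4, from 0 naïve-only and 2 primed-only regions. Its 3 primed-only regions had BAF155 folds of 2.55 to 2.90, so those 2 also lay in regions classed common before. Unlike the CDH1 start, the CDH3 start was called by all 5 BAF lists, in the common region chr16:68644525-68646500, with naïve folds of 2.74 (BRG1), 2.99 (BAF155) and 2.78 (BRM) and primed folds of 3.30 (BRG1) and 3.53 (BAF155).

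EPCAM (ENSG00000119888.11, chr2:47345158-47387601, plus strand) encodes a homophilic adhesion protein of epithelia and pluripotent cells. Its window held 12 naïve-only, 4 primed-only and 6 common regions, an excess of 8 that 18.8% of genes reached or passed. Of the 12 naïve-only regions, 7 lay downstream and 5 upstream of the gene. With regions limited to those within 20 kb of their nearest start, the difference at EPCAM was 0, and with peaks of fold at least 4 it was -1. The 1 primed-only region at that threshold lay at the main start, in a region otherwise classed common. The start of EPCAM was called by all 5 BAF lists within the common region chr2:47368498-47370577. The primed BAF155 fold there was 5.45, above 96.5% of that list, against 3.13 in naïve cells, and BRG1 had folds of 4.17 primed and 3.20 naïve. BRM had a naïve fold of 3.49 at this start.

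SOX2 was called at EPCAM in primed cells only, at 3 sites upstream of the main start. The strongest, chr2:47334279-47334664 at -34.8 kb, had a fold of 19.8, above 98.3% of primed SOX2 peaks and the highest of any SOX2 peak at the 8 genes. It overlapped a common BAF region in which the naïve BRG1 and BAF155 folds were 2.61 and 2.70 and the primed BAF155 fold 3.71. The other peaks, chr2:47345025-47345367 (fold 6.30) and chr2:47346120-47346414 (fold 9.54), shared 1 common BAF region of 2271 bp at the start of the longer EPCAM transcripts.

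**Figure D2:**
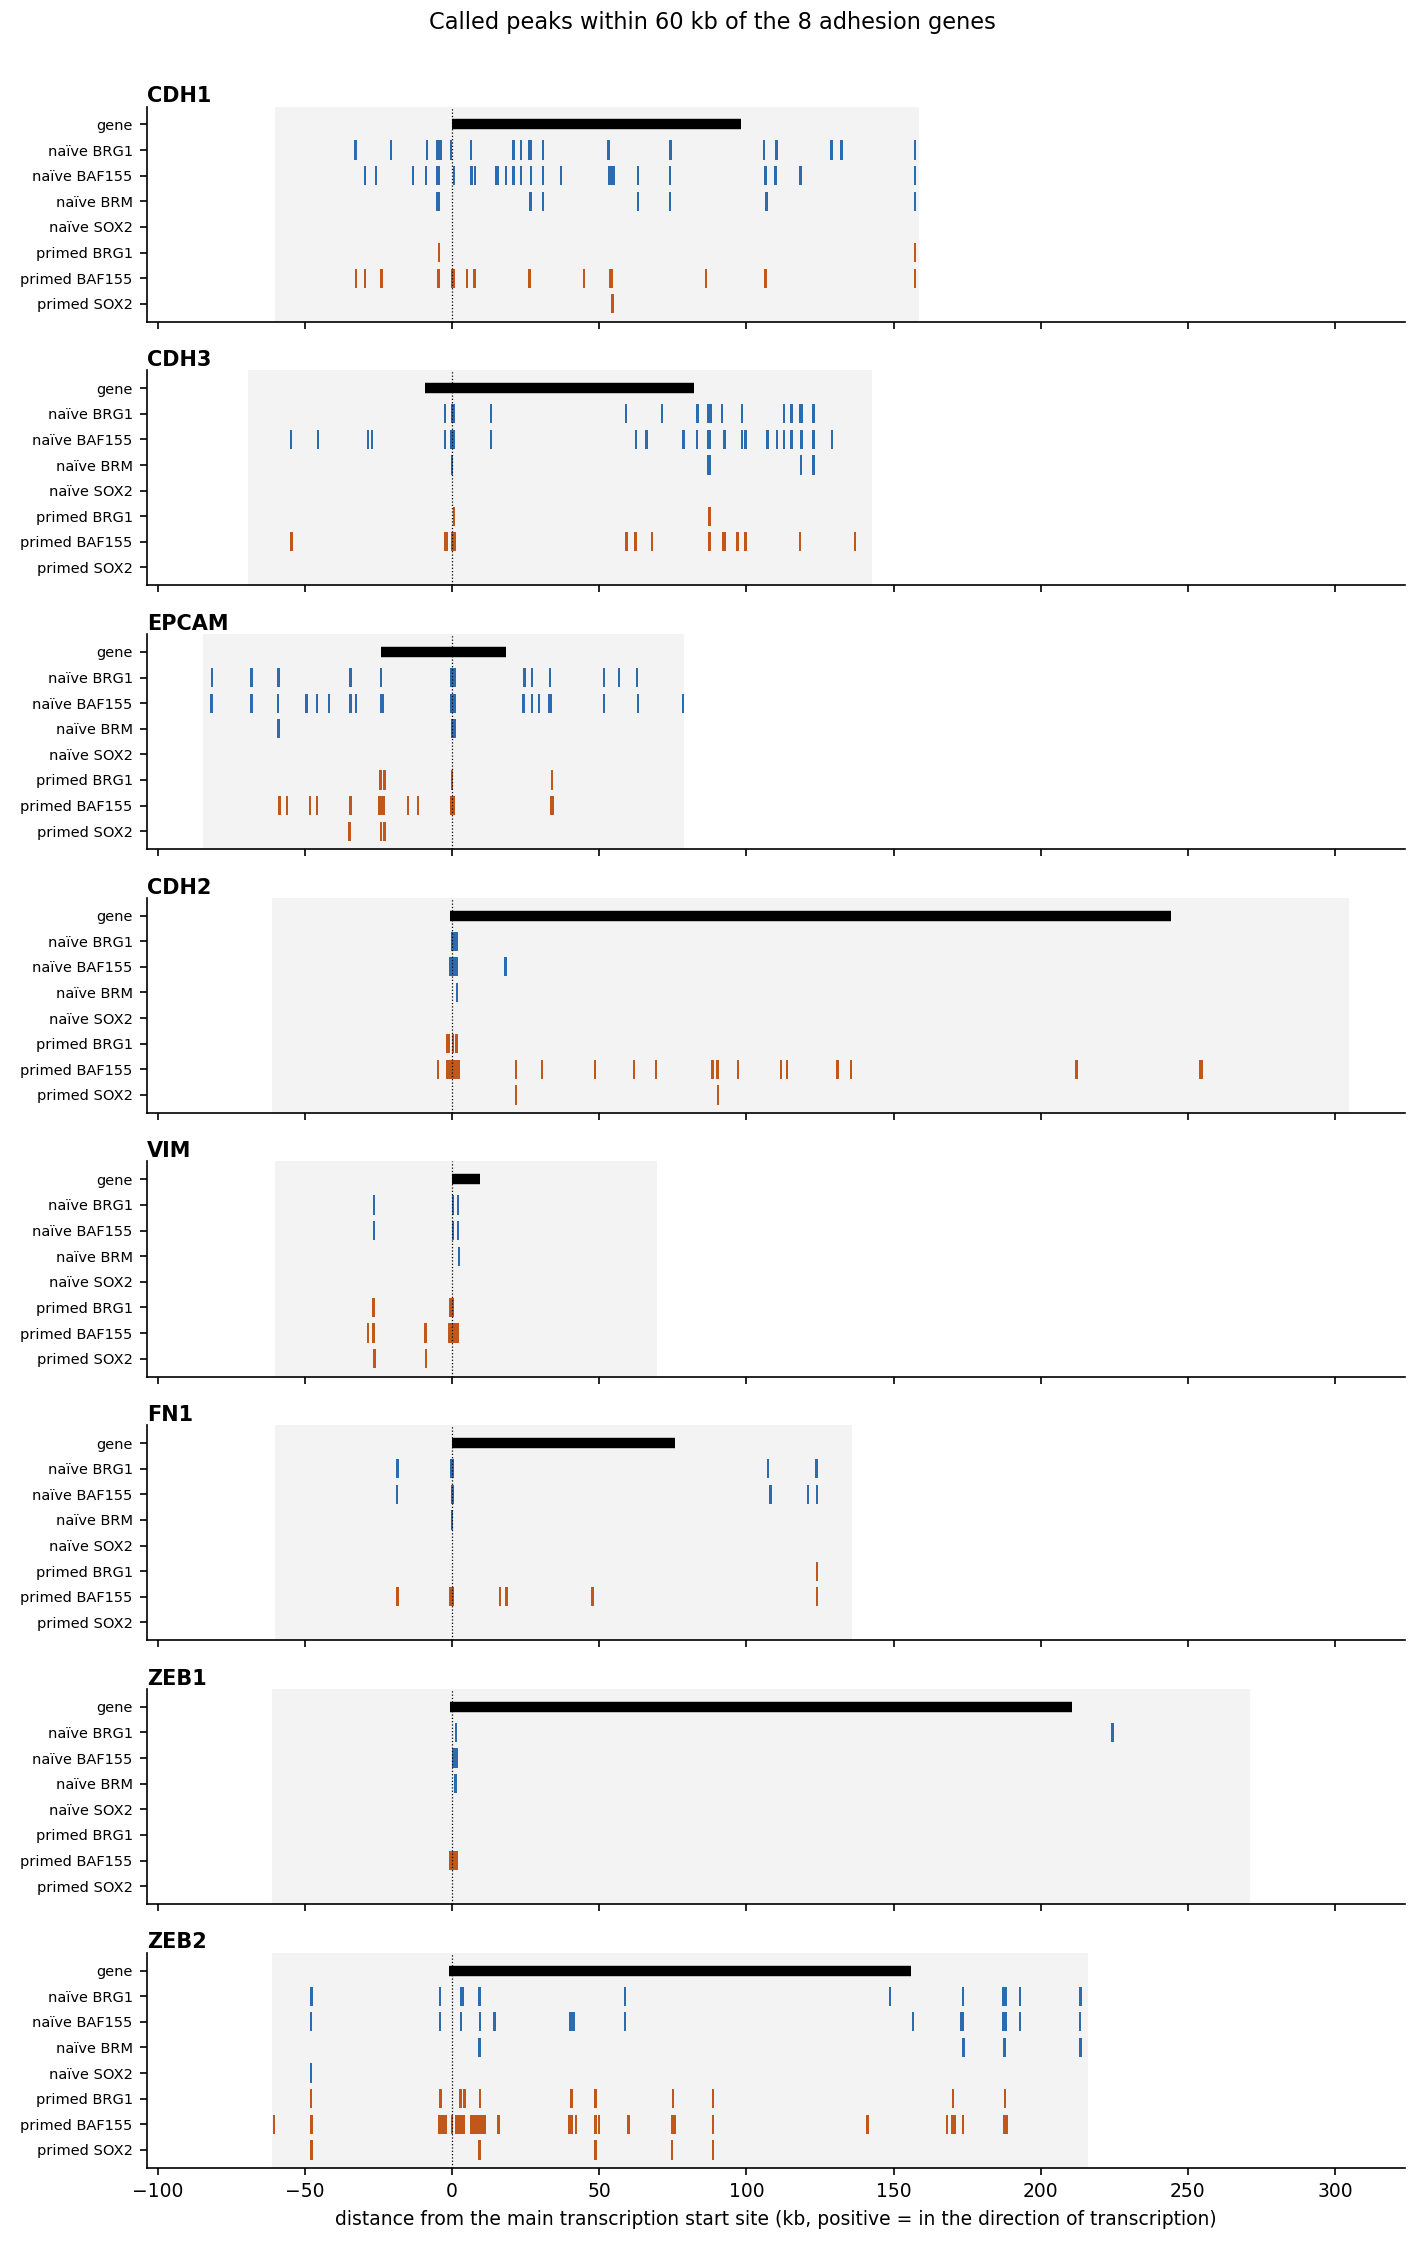
Position of every called peak within 60 kb of each gene, in kb from the main transcription start site, with naïve lists in blue and primed lists in orange. Grey shading is the window, the black bar the gene body, and peaks under 0.8 kb are drawn 0.8 kb wide; naïve peaks crowd CDH1, CDH3 and EPCAM, while at CDH2 nearly all peaks away from the start are primed BAF155.

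CDH2 (ENSG00000170558.10, chr18:27932879-28177946, minus strand) showed the reverse of CDH1. N-cadherin replaces E-cadherin as cells leave an epithelium. Its window of 365 kb held 1 naïve BRG1, 2 naïve BAF155 and 1 naïve BRM peak, against 3 primed BRG1, 16 primed BAF155 and 2 primed SOX2 peaks. There were 15 primed-only regions, 1 naïve-only region and 1 common region. A difference of -14 or lower was seen at 0.255% of protein-coding genes. Among 2095 genes with windows of at least 277 kb, 44.2% had more primed-only and 47.5% more naïve-only regions. The 15 regions had CDH2 as nearest coding start in every case, and 13 lay in introns, mostly the long second intron. All 15 came from the primed BAF155 list and none overlapped a primed BRG1 peak, so with BRG1 peaks alone the difference was -1. With peaks of fold at least 4 it was 0. The BAF155 folds of the primed-only regions ran from 2.54 to 3.90, around the list median of 3.28.

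The CDH2 start had the highest naïve BRG1 and BAF155 folds of the 8 starts. A common region of 4747 bp, chr18:28174552-28179298, had naïve folds of 4.07 (BRG1) and 4.22 (BAF155), above 95.5% and 96.5% of their lists, and a BRM fold of 4.83 at 1.57 kb into the gene. In primed cells the same region had folds of 4.18 (BRG1, highest of 3 peaks) and 4.57 (BAF155). Thus BAF was called at the CDH2 start in both states, and the difference between states lay in the introns. The primed SOX2 peaks were chr18:28086636-28087003 in intron 2 (fold 9.03) and chr18:28155255-28155494 in intron 1 (fold 8.15), each within a primed-only BAF155 region.

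VIM (ENSG00000026025.16, chr10:17228241-17237593, plus strand) encodes the intermediate filament of mesenchymal cells and had few sites. Its window held no naïve-only, 2 primed-only and 2 common regions, a difference of -2 that became 1 with BRG1 peaks alone. The region at the start, chr10:17226976-17230722, was common. It was covered by 1 primed BAF155 peak of 3747 bp and by 2 naïve BAF155 peaks of 1253 bp in all. BRG1 covered 1556 bp of it in primed cells (1 peak) and 1309 bp in naïve cells (2 peaks). The highest folds within 1 kb of the start were 3.18 naïve and 3.95 primed for BAF155, and 3.31 and 4.16 for BRG1. Counting the full width of only those peaks that touched 1 kb around the start, BAF155 was wider in primed cells at 5 of the 7 members with such peaks in both states and at 66.8% of all genes with both. For BRG1 this was so at 2 of 4 members and at 17.4% of all genes. SOX2 was called in primed cells at chr10:17219160-17219394 (fold 4.27, within a primed-only region at -9.08 kb) and at chr10:17201652-17201937 (fold 6.99), where the nearest coding start was that of TRDMT1.

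FN1 (ENSG00000115414.21, chr2:215360440-215436073, minus strand), which encodes fibronectin, had 3 regions of each class and no SOX2 peak. Its difference of 0 ran from -3 (20 kb flanks, or regions within 20 kb of their nearest start) to 3 (BRG1 alone) and was below 0 in 6 of 11 alternatives. All 3 primed-only regions were in its introns and came from BAF155 with folds from 2.60 to 3.43. All 3 naïve-only regions were downstream and nearest to ATIC. The start of FN1 was called by naïve BRG1, BAF155 and BRM (folds 3.03, 3.19 and 3.57) and by primed BAF155 (3.22), with no primed BRG1 peak within 1 kb.

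The ZEB repressors, which silence CDH1, differed from each other. ZEB1 (ENSG00000148516.23, chr10:31318495-31529814, plus strand) had only 2 BAF regions in a window of 331 kb, fewer than most genes: 93.8% of genes had that number or more. One was the common region at its start, chr10:31318210-31321087, with naïve folds of 2.68 (BRG1), 3.03 (BAF155) and 3.36 (BRM) and a primed BAF155 fold of 3.80. The other was a naïve-only BRG1 peak downstream of the gene (fold 2.98), which was lost at a -log10 q of at least 3, where the difference went from 1 to -1. Neither primed BRG1 nor SOX2 was called in the window.

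ZEB2 (ENSG00000169554.23, chr2:144364364-144521057, minus strand) had 12 primed-only, 7 common and 6 naïve-only regions in a window of 277 kb. A difference of -6 or lower was seen at 2.14% of all protein-coding genes, a share that takes no account of window length. Among genes with windows at least as long, 44.2% had more primed-only regions. It had the most primed BRG1 (11), primed BAF155 (19) and primed SOX2 (5) peaks of the 8 genes. Of its 12 primed-only regions, 4 also had a primed BRG1 peak and 3 a primed SOX2 peak, and 10 had a ZEB2 start as nearest coding start. Where CDH2 had no primed BRG1 away from its start, ZEB2 had both BAF subunits at several intronic sites. The difference between the ZEB2 classes was 0 with BRG1 peaks alone.

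Intron 2 of ZEB2 held the strongest sites. The primed-only region chr2:144471188-144471719, at 48.7 kb, had primed folds of 6.48 (BAF155), 4.42 (BRG1) and 15.4 (SOX2), and no naïve peak. The BAF155 and SOX2 values were above 98.7% and 95.2% of their lists. The common region chr2:144508689-144514081, 5393 bp wide and centred 8.73 kb into the gene, was called by every list but naïve SOX2. Its naïve folds were 4.37 (BRG1), 4.32 (BAF155) and 4.16 (BRM), and its primed folds 6.56 (BRG1), 5.59 (BAF155) and 13.4 (SOX2). Its naïve and primed BRG1 values were each the highest of the ZEB2 window. Upstream, at -47.9 kb, was the site where SOX2 was called in both states, chr2:144567906-144568188 in naïve cells (fold 10.0) and chr2:144567741-144568192 in primed cells (fold 9.76), within a common region called by BRG1 and BAF155 in both states.

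At its main start ZEB2 was the exception among the 8 genes. Naïve BRG1 and BAF155 were each called within 1 kb of the main start of the other 7 genes and not of ZEB2. There a primed BAF155 peak of fold 2.85 made the only primed-only start region of the set. The nearest naïve peaks ended 2.63 kb inside the gene (BRG1) and began 3.85 kb upstream of it (BAF155). Other annotated ZEB2 starts were, however, close to naïve peaks inside the gene. The start nearest to the centre of a naïve BRG1 peak lay 0.028 kb from it. A different start lay 0.3 kb from the centre of a naïve BAF155 peak. The next primed BAF155 peaks, each within a common region, ended 1.01 kb inside the gene and began 1.69 kb upstream.

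Across the starts, naïve BRG1 and naïve BAF155 were thus each called at 7 of 8 genes (61.7% and 61.8% of all genes), and naïve BRM at 4, namely CDH3, EPCAM, FN1 and ZEB1 (17.4%). Primed BAF155 was called at 8 of 8 (69%) and primed BRG1 at 4, namely CDH3, EPCAM, CDH2 and VIM (29.8%). No start had a SOX2 peak, as was so for most genes (0.2% with naïve and 3.03% with primed SOX2). The BAF155 fold was higher in primed than in naïve cells at all 7 starts called in both, from 1.01 times at FN1 to 1.74 times at EPCAM, and BRG1 was higher at all 4. The same held for 81.8% (BAF155) and 84.5% (BRG1) of all genes with peaks in both states, so this is not particular to these genes. Folds of different libraries depend on depth and input and are set side by side only.

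RefSeq promoter sequences (GRCh38.p14) matched the main start of 5 of the 8 genes, CDH2, FN1, VIM, ZEB1 and ZEB2. The 250 bases before the start are printed, on the strand of the gene, for the 3 that held a motif searched. Capitals mark E-boxes (CACCTG, either strand) in ZEB1, KLF letters (GGGTGTGGC, GGGTGGGGC, GGGCGTGGC or GGGCGGGGC, either strand) in FN1, and a SOX core in ZEB2.
ZEB1 promoter, chr10:31318966-31319215: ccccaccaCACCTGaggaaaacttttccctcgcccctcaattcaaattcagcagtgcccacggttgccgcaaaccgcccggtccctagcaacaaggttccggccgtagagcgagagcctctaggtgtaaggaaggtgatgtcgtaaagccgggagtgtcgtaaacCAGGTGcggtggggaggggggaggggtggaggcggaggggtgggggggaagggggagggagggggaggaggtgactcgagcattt
FN1 promoter, chr2:215436069-215436318: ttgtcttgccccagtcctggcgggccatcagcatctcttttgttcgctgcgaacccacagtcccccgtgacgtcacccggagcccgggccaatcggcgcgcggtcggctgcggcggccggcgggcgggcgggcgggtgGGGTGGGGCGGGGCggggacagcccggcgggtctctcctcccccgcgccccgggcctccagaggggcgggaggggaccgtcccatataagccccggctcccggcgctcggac
ZEB2 promoter, chr2:144520120-144520369: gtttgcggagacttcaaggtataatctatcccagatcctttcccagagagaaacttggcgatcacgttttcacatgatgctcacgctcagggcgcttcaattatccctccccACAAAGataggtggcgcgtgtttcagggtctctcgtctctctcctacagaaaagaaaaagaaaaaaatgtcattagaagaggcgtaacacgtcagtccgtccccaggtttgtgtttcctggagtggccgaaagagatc

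The ZEB1 promoter held 2 E-boxes in these bases and 3 in the whole entry, which runs on past the start, where 20.6% of 35114 RefSeq promoters held at least 1. FN1 held 2 KLF matches that overlap each other (18.4% of promoters held at least 1) and a palindromic TFAP2 match (GCCNNNGGC, 23.2%). The SOX core was present in 24.5% of promoters, ZEB2 included, and the ZIC letters CCTGCTG in 10.5%. The promoters of CDH2 and VIM held none of these.

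**Figure D3:**
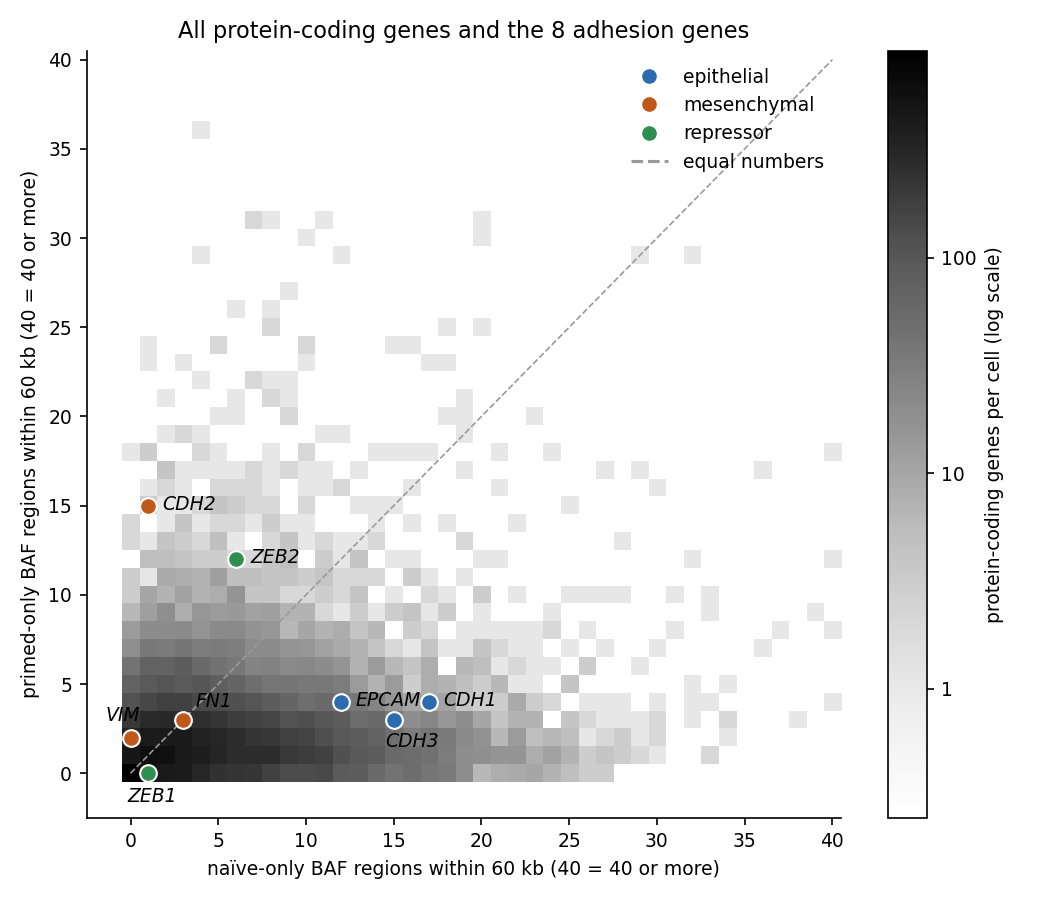
Naïve-only against primed-only BAF regions within 60 kb for all 20033 protein-coding genes (grey, darker where more genes fall, counts over 40 drawn at 40), with the 8 genes in colour. CDH2 (1 against 15) and ZEB2 (6 against 12) lie above the line of equal numbers, and CDH1 (17 against 4), CDH3 and EPCAM below it.

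BRM, the ATPase whose list was long only in naïve cells, was called in the windows of all 8 genes, against 70.2% of protein-coding genes, whose windows were shorter (median 147 kb, against 215 kb here). Of its 18 peaks, 10 were at the epithelial genes, 3 at the mesenchymal genes and 5 at the repressors. All 18 lay on naïve BAF regions, as did 94.8% of all naïve BRM peaks, and 13 also touched a primed BAF region (51.7% of all). BRM overlapped 4 of the 44 naïve-only regions (9.09%, against 14.3% in the series) and 14 of the 32 common ones (43.8%, against 32.1%).

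SOX2 was called near 5 of the 8 genes in primed cells, against 42.6% of protein-coding genes, and near 1 in naïve cells, against 13.2%. The primed list was also longer, and per Mb the members held 7.30 primed and 0.562 naïve peaks, beside 3.62 and 0.799 over all gene windows. When each antibody was held to the same number of peaks in both states, the 13 primed peaks became 4. All 13 lay on primed BAF regions (88.8% of all primed SOX2 peaks did), 7 in common and 6 in primed-only ones, and 6 touched a naïve BAF region (42.6% of all). Each lay over 1 kb from a main start, and 7 lay in first or second introns. However, 3 lay within 1 kb of another annotated coding start, 1 each of EPCAM, ZEB2 and TRDMT1. Of the 13, 10 had folds above the list median of 6.73.

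**Figure D4:**
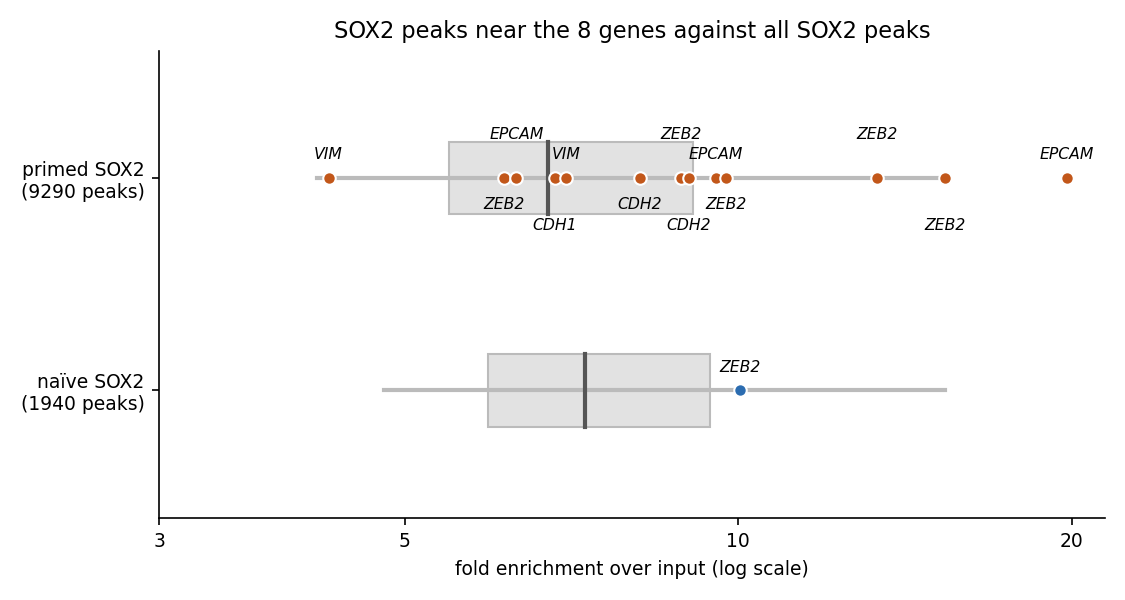
Fold enrichment over input (log axis) of the SOX2 peaks near the 8 genes (points, with the gene), against all SOX2 peaks of the state (box, 25th to 75th percentile with the median; line, 5th to 95th percentile). The highest points are the EPCAM peak at 19.8 and the ZEB2 intron 2 peak at 15.4, both primed.

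A wider list of 45 genes of adhesion and of the same transition was counted in the same way. Each gene was counted by its own window, so a region shared by neighbouring genes of the list counts at each. More naïve-only regions were found at 27 of the 45 (66.1% of all genes) and more primed-only regions at 15 (21.2%), with 3 equal. The 16 junction genes, which encode catenins, claudins, desmosomal proteins and simple epithelial keratins, were mostly on the naïve side, with 14 against 1, and so were 4 of 5 epithelial regulators. The matrix and matrix-adhesion genes were divided, 5 against 5 of 11. Of the 8 other cadherins, 3 had more naïve-only and 5 more primed-only regions, and of the 5 other repressors, 1 and 3. The largest naïve excesses, 16 each, were at CTNNA1 (24 naïve-only, 8 primed-only), which encodes the catenin that links cadherins to actin, at SNAI1 (19 and 3), a repressor of CDH1, and at the claudin gene CLDN4 (17 and 1). SNAI1 therefore stood on the opposite side from ZEB2. The largest primed excesses were at TCF4 (1 and 15), which encodes an E-box-binding factor, at CDH4 (3 and 12), the gene of R-cadherin, and at CDH13 (7 and 15), the gene of T-cadherin. The latter 3 have windows of 563, 808 and 1294 kb.

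**Figure D5:**
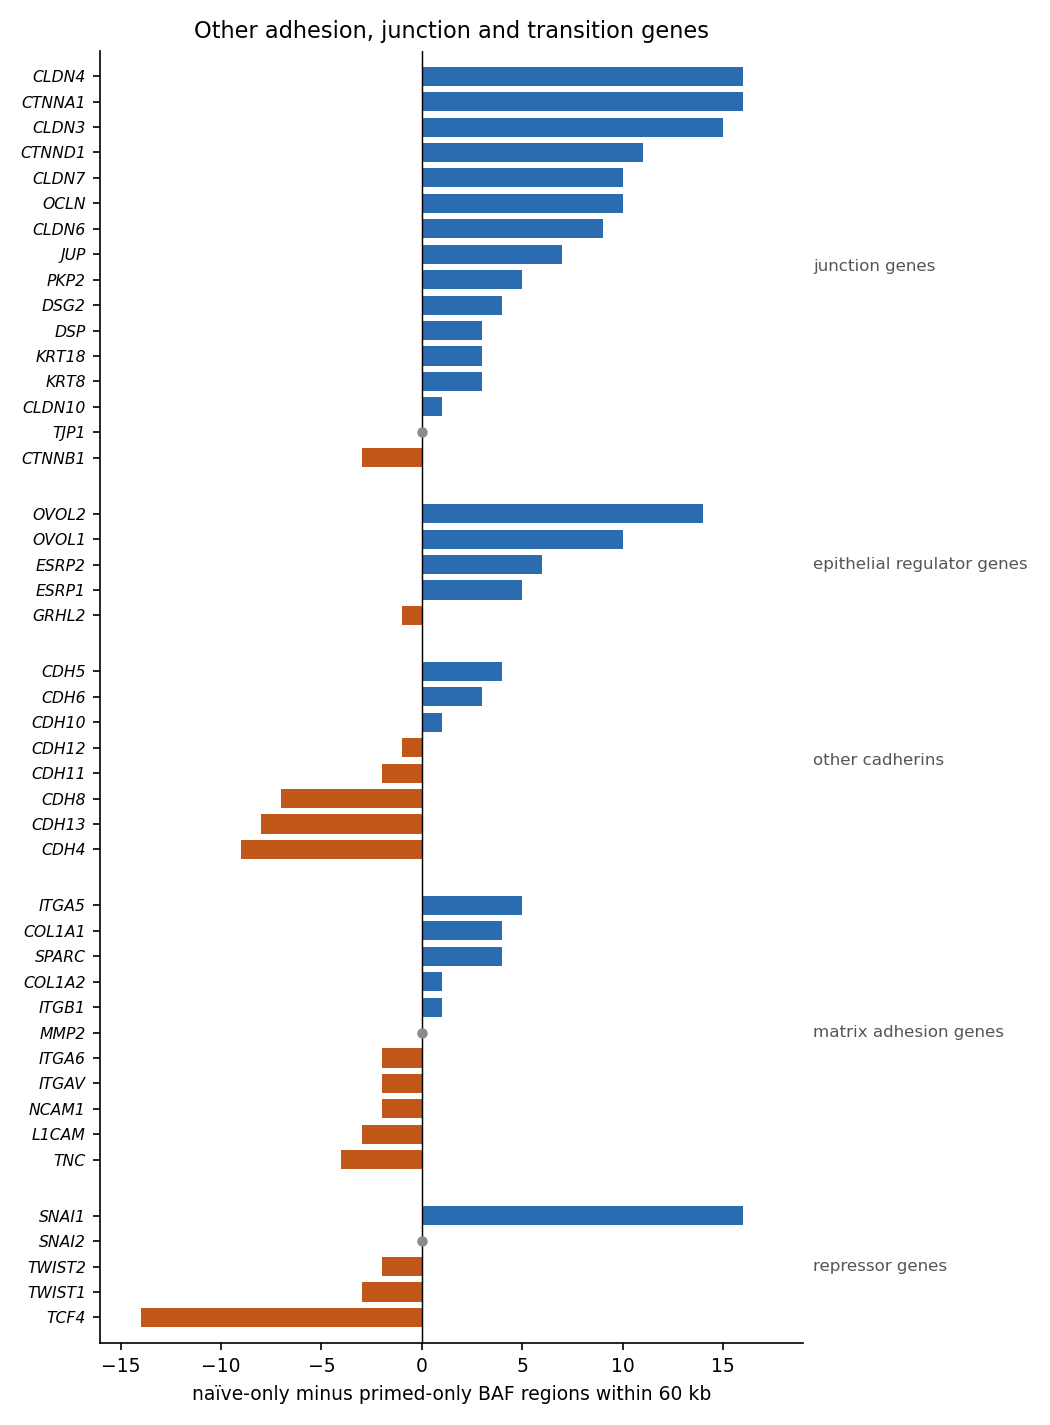
Naïve-only minus primed-only BAF regions within 60 kb for 45 other adhesion and transition genes, ordered within 5 groups by role (blue above 0, orange below, grey dots at 0). Junction genes lie mostly to the right, with CTNNB1 at -3 the exception below 0, and SNAI1 and TCF4 lie at opposite ends of the repressors.

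The naïve-only regions had a median width of 523 bp, the primed-only regions 328.5 bp and the common regions 1591 bp. All 40 primed-only regions held a primed BAF155 peak and 4 (10%) a primed BRG1 peak, against 11.9% of primed-only regions in the series. Of the 44 naïve-only regions, 24 held BRG1 (54.5%, against 65.7% in the series) and 37 BAF155 (84.1%, against 74.8%). A member was the nearest coding start of 37 of the 40 primed-only, 27 of the 44 naïve-only and 24 of the 32 common regions.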

How the data were processed

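ChIP-seq of BRG1, BAF155, BRM and SOX2 in naïve and primed WIBR3 hESCs was examined from the deposited peak lists. Per the methods of the study, reads were trimmed with trim_galore, mapped to hg38 with bowtie2 (2.3.4 in the submitters' processing notes) and cleared of duplicates, and MACS2 called peaks against input, broad for BAF subunits and narrow for SOX2. BAF subunit libraries were single-end and SOX2 libraries paired-end. The authors' files give positions and, for all lists used except primed BRM, a peak score, the fold over input (a linear ratio) and −log10 p and q values, which were used as deposited. The second SOX2 list of each state repeated the coordinates of the first (1941 naïve, 9291 primed, before other sequences than chromosomes 1 to 22, X and Y were left out) and was counted with it. Whether reads were pooled is not given in the sources used here. Inputs came with no peak list used here. The study lists read totals of the BAF subunit libraries, which were not used here, and the peak lists hold no depth.

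A window was a gene body plus 60 kb on each side, and a start region 1 kb on each side of the main (MANE Select or canonical) GENCODE 44 transcript start. Overlap of states followed the 25% rule of the study. With 1 sample per group there was no test and no error. Named were the 8 genes, peaks at their starts, all SOX2 peaks, the peak of highest fold per list and, from the wider list, the 3 genes with the largest difference in each direction. A few further regions of the members were named after their values were seen. The members and the lists were chosen with earlier results of these data known. The window of 1 SOX2 peak that the rule would show is not reported here. Motifs were matched by exact letters, and the composite element with up to 2 mismatches, in 200 bp summit windows and RefSeq promoters. Overlap code was tested on simulated intervals. Python 3.11.15, pandas 2.3.3 and NumPy 2.4.6 were used.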

Additional observations from a re-analysis of the deposited data

How the results depend on the processing

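The 11 alternatives were recomputed. CDH2 and ZEB2 each kept a difference below 0 in 10 of 11 (0 for CDH2 with peaks of fold at least 4 and 0 for ZEB2 with BRG1 alone), and CDH1 kept one above 0 in 10 of 11. With peaks of fold at least 4, 0 naïve-only, 17 primed-only and 3 common regions were left, 0 genes had more naïve-only and 6 more primed-only regions, CDH1, CDH3 and EPCAM turned to -2, -2 and -1, and the peaks numbered 3 (naïve BRG1), 3 (naïve BAF155), 3 (naïve BRM), 10 (primed BRG1) and 18 (primed BAF155). Some of those 17 primed-only regions lay within regions classed common at the main threshold. An example is chr16:68731878-68733751, with BAF155 folds of 3.00 naïve and 4.96 primed. Naïve folds were lower over whole lists too (5.06% of naïve BRG1 and 21.7% of primed BRG1 peaks reached 4). With −log10 q of at least 3 there were 11, 26 and 14 regions, 2 genes with more naïve-only and 5 with more primed-only, ZEB1 turned to -1, and the same 5 lists held 17, 19, 5, 12 and 40 peaks. With BRG1 alone there were 8 primed-only and 14 common regions, 1 gene with more primed-only, and VIM turned to 1. With equal list lengths naïve BRG1 had 17 and primed SOX2 4 peaks. With 20 kb flanks there were 29 naïve-only regions and 0 naïve SOX2 peaks. With regions assigned to a nearest start under 20 kb away there were 20 naïve-only, 25 primed-only and 21 common regions, and 2 genes with more naïve-only. The share of all genes with more naïve-only regions moved from 66.1% to 12.8% (fold), 39.2% (q), 87.3% (BRG1 alone) and 51.2% (equal lengths). The cause was not tested. The wider list was not recomputed. No paired analysis was possible because each group had 1 sample.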
